A study of Gorilla gorilla gorilla with 14 samples.

Results

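Neurons sorted from gorilla cerebral organoids were profiled in 2 series of ATAC-seq libraries, and the accessibility of their chromatin was compared between them. All 4 neuron libraries of the 14 in the study were used. They were picked by cell type, and split by the library numbers in the labels, which form 2 separate runs. Replicates 1 and 2 (N1 and N2) belong to the first library series, and replicates 3 and 4 (N3 and N4) to the second. All 4 share the same material as far as the labels describe it: cerebral organoids of the gorilla induced pluripotent stem cell line GC1 in week 8 of culture, sorted by flow cytometry, with neurons described as BCL11B+. The other libraries were apical radial glia (aRG, 3), basal radial glia (bRG, 2) and basal intermediate progenitors (bIP, 5), of the same line and week. The labels do not say what separates the series, so culture, sort, library preparation and sequencing run cannot be told apart. GC1 is 1 line. The labels name no separate cultures within a group, so p-values cover only the spread between these libraries, which may be technical. In bulk samples, a change in the share of a cell subtype and a change within each cell cannot be told apart.

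ATAC-seq uses a transposase that inserts adapters where DNA is not packed in nucleosomes, so the number of reads over a region measures how open it is. Promoters of widely used genes are open in most cell types, while distal elements, mostly enhancers, open in a cell type and stage at a time. In the developing cortex, radial glia give rise to intermediate progenitors and these to neurons. Deep-layer neurons, which depend on factors such as FEZF2, BCL11B and TBR1, are born before upper-layer neurons, which are marked by CUX1 and CUX2.

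The neuron libraries held 24207798 (N1), 14416471 (N2), 16918366 (N3) and 23328279 (N4) counts, within the range of 12834983 to 26660427 over all 14. N3 had the flattest profile: the regions below the median level took 13.0% of its counts, against 9.84% in N1, 8.65% in N2 and 7.29% in N4. The share of counts in promoter regions was 33.4%, 39.1%, 30.4% and 32.7% in N1 to N4, highest in N2 and lowest in N3. Pearson's r of log2 levels across regions, which are not independent replicates, was 0.952 within the first series, 0.934 within the second and 0.852 to 0.901 between them. Levels are given below in CPM (counts scaled to a common library total), scaled over the 4 neuron libraries unless stated otherwise. Differences are log2 of second over first ± SE. The SE is the size of the difference divided by the square root of the F statistic of edgeR.

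Promoters of cell type markers had similar levels in both series. On a scale set over all 14 libraries, the promoter of STMN2, a tubulin regulator of neurons, ranged from 43.7 to 65.6 CPM in the neurons and from 11.1 to 12.7 CPM in aRG. MYT1L, which represses non-neuronal genes, ranged from 32.6 to 53.9 CPM in the neurons and 5.74 to 8.24 CPM in aRG. SOX2, a factor of neural stem cells, lay the other way, at 8.13 to 11.6 CPM in the neurons and 58.1 to 61.1 CPM in aRG. These 3 promoters set the neurons apart from aRG without overlap in either series. The promoter of BCL11B, the gene of the label, did not, with 14.7 to 23.2 CPM in the neurons and 15.8 to 22.4 CPM in aRG. STMN2 and MYT1L did not set the neurons apart from bIP, with 31.9 to 57.6 CPM and 35.5 to 58.1 CPM there. SOX2 did, with 22.9 to 43.2 CPM in bIP.

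Between series, none of the 13 identity and activity promoters given here passed the test (PEG3 is described below). STMN2 had 53.8 and 61.8 CPM in the first series and 47.1 and 65.7 CPM in the second, a log2 difference of -0.03 ± 0.45. The cortical neuron factor TBR1 had 46.2 and 46.4 CPM against 37.1 and 48.1 CPM (-0.12 ± 0.43). FEZF2, which specifies subcerebral projection neurons, had 34.1 and 35.5 CPM against 32.1 and 44.7 CPM (0.14 ± 0.42). BCL11B had 22.9 and 25.5 CPM against 15.8 and 21.6 CPM (-0.37 ± 0.39). For STMN2, TBR1 and FEZF2 the second-series libraries lay on both sides of the first, while both BCL11B values were below. The others (MYT1L, NEUROD2, NEUROD6, EOMES, GAD1, DLX2, SOX2, PAX6 and FOS) differed by -0.46 to 0.32. The smallest log2 difference called anywhere in this fit was 1.00. With loess offsets on abundance, STMN2 (0.37), FEZF2 (0.42) and EOMES (0.58) passed as higher in the second series.

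Across the genome, 16951 of 188428 regions tested passed the test (9.0%), 9352 higher in the second series (4.96%) and 7599 lower (4.03%). Of these, 1085 were at least 4-fold higher and 1271 at least 4-fold lower. Promoter regions, at most 1000 bp from their closest gene, had a smaller share called, 935 of 20063 (4.66%), with 411 higher (2.05%) and 524 lower (2.61%). Among protein-coding promoters it was 244 of 10508 (2.32%), 67 higher (0.638%) and 177 lower (1.68%). Regions over 1000 bp from a gene, called distal here, held 15753 calls of 165723 tested (9.51%), 8854 higher (5.34%) and 6899 lower (4.16%). The counts depend on single libraries: 2070 regions passed without N2, 4740 without N1 and 33912 without N3. The split does too: 55.2% of the calls were higher, against 63.3% when scaled by total counts and 39.1% without N2.

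A small set of promoters was nearly closed in one series and open in the other. The most extreme was PEG3, a paternally expressed imprinted gene for a zinc finger protein. Its region chr19:46654113-46655504 (gorGor6 throughout), 605 bp from the gene, had 0.369 and 0.896 CPM in the first series and 63.3 and 107 CPM in the second (7.18 ± 0.61, adjusted p 5.06e-27, edgeR). The neighbouring distal region chr19:46652905-46653884 went from 3 counts in each first-series library, or 0.123 and 0.224 CPM, to 30.9 and 46.7 CPM (7.86 ± 0.61). In both, the lowest second-series library was far above the highest first-series one. PEG3 was put on the list with earlier results of these data known. It was the only 1 of 23 tested promoters of genes imprinted in human or mouse that passed, and the median of that list was -0.15, beside -0.25 for all genes with a tested promoter.

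PEG3 matched no protein-coding entry of the gene table used and is not in the counts of protein-coding promoters. Of the promoters in those counts that were higher in the second series, CHL1, a neural adhesion molecule of the L1 family, differed most. Its region chr3:192185-194393 had 0.246 and 0.448 CPM in N1 and N2, and 13.1 and 18.8 CPM in N3 and N4 (5.59 ± 0.50, adjusted p 4.44e-24, edgeR). OCIAD2, a protein of mitochondria and endosomes (chr4:48814912-48816273), had 0.328 and 1.19 CPM against 12.03 and 18.1 CPM (4.45 ± 0.46). KHDRBS2, an RNA-binding splicing regulator (chr6:60087440-60089064), had 0.657 and 1.27 CPM against 11.98 and 16.5 CPM (3.96 ± 0.44). In all 3 each first-series library had at most 1.27 CPM and each second-series one at least 11.98 CPM.

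Several others encode receptors and adhesion molecules of neurons. GRM7, a metabotropic glutamate receptor (chr3:6898386-6900526), had 1.64 and 2.46 CPM against 11.9 and 17.9 CPM (2.89 ± 0.40). CNTN4, a contactin of axons (chr3:2108235-2110424), had 3.57 and 4.70 CPM against 24.3 and 31.6 CPM (2.77 ± 0.41). PCDHB5, a clustered protocadherin (chr5:120636918-120638598), had 2.50 and 1.64 CPM against 11.6 and 14.1 CPM (2.60 ± 0.39). In each of them the groups were well apart, with N4 above N3. The zinc finger gene ZNF441 (chr19:7252390-7254042) had 2.09 and 2.54 CPM against 16.3 and 17.6 CPM (2.88 ± 0.40). GPR25, an orphan G-protein-coupled receptor (chr1:171614848-171616304), had 0.780 and 1.94 CPM against 6.35 and 8.84 CPM (2.57 ± 0.39).

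Of the promoters lower in the second series, the 8 of smallest p had at most 12.8 CPM in any library. QPCT, an enzyme that forms N-terminal pyroglutamate (chr2A:53526023-53527101), had 7.76 and 10.8 CPM in the first series and 0.516 and 0.846 CPM in the second (-3.74 ± 0.42, adjusted p 1.57e-15, edgeR). TCERG1L, a relative of a transcription elongation regulator (chr10:126619894-126623667), had 12.8 and 12.5 CPM against 1.55 and 1.69 CPM (-2.96 ± 0.40). HTR5A, a serotonin receptor (chr7:146625700-146626732), had 7.43 and 9.70 CPM against 0.981 and 1.65 CPM (-2.69 ± 0.38). For these 3 the first-series level was at least several times the second in every library.

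TMC3 (-2.32 ± 0.38), the proton channel gene OTOP1 (-2.30 ± 0.38), the photoreceptor gene RP1L1 (-2.32 ± 0.38), IQCF6 (-2.59 ± 0.44) and the cytokine gene IL25 (-2.42 ± 0.41) followed. RP1L1 had 8.04 and 10.7 CPM against 2.58 and 1.18 CPM. IL25 had 3.12 and 5.30 CPM against 0.981 and 0.564 CPM. IQCF6 and IL25 no longer passed without N2, and no other of the 16 promoters chosen for the smallest p lost its call when 1 library was left out.

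**Figure D1:**
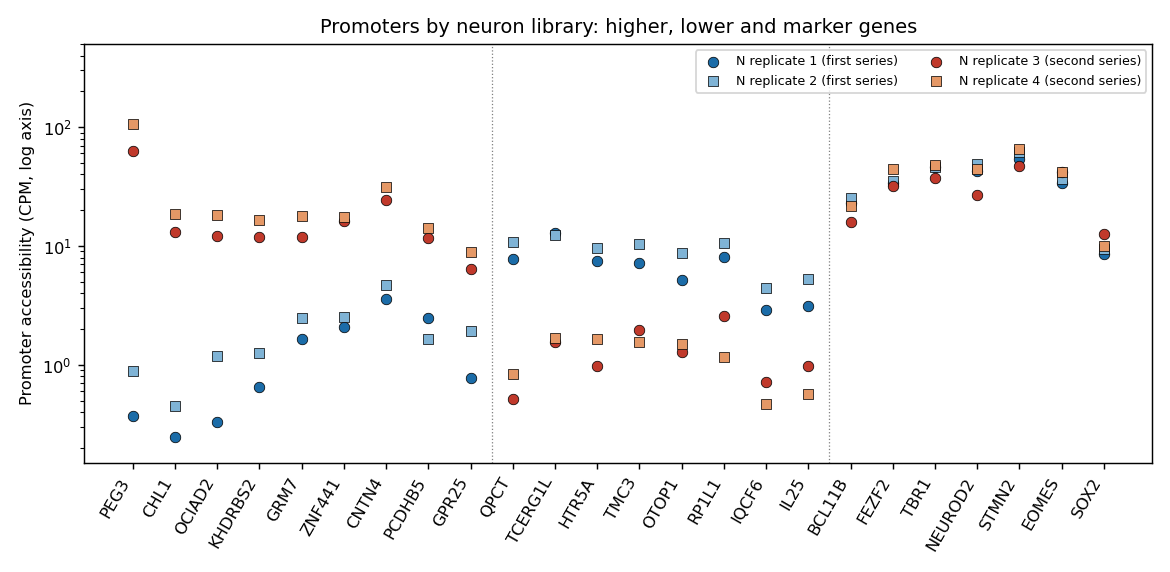
Accessibility of promoters in each neuron library, in CPM on a log axis; circles and squares are single libraries, blue for the first series and red or orange for the second. PEG3 and the 8 promoters after it lie between 0.246 and 4.70 CPM in the first series and between 6.35 and 107 CPM in the second, the next 8 lie the other way, and the 7 marker promoters at the right lie close together.

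Few members of the gene lists had a promoter that passed. None did among 13 tested deep-layer genes (median -0.02), 10 upper-layer genes (-0.28), 16 genes of postmitotic neurons (-0.10), 12 of intermediate progenitors (-0.22), 19 of radial glia (0.02), 18 of the GABAergic lineage (-0.39), 19 of the cell cycle (-0.40) or 20 immediate early genes (-0.22). The median over all 18937 genes with a tested promoter, non-coding ones included, was -0.25, with 2.03% higher and 2.52% lower. Over the 10508 protein-coding promoter regions it was -0.29, with 0.638% higher and 1.68% lower. Of 290 zinc finger promoters, 4 were higher (ZNF441, ZNF177, ZNF483 and ZNF232) and 1 was lower (ZNF487). ZNF483 had 6.65 and 6.35 CPM against 18.9 and 24.3 CPM (1.73 ± 0.39). Only ZNF441 of these 5 kept its call when each library was left out in turn. Of 27 tested promoters of synaptic and axonal adhesion genes, 2 were higher, those of the contactins CNTN4 and CNTN6. CNTN6 had 1.31 and 1.12 CPM against 3.56 and 3.57 CPM (1.53 ± 0.39), and lost its call without N1 or without N2.

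Single promoters passed in lists of other cell types. CA9, a carbonic anhydrase induced by low oxygen, had 26.4 and 35.5 CPM in the first series and 13.7 and 11.7 CPM in the second (-1.28 ± 0.40), as the only 1 of 13 hypoxia genes. AQP1, a water channel of choroid plexus (-1.06 ± 0.35), ALDH1L1, a folate enzyme of astrocytes (-1.02 ± 0.35), and LMX1B, a factor of midbrain and hindbrain (-1.29 ± 0.37), were lower. LUM, a matrix proteoglycan of mesenchyme, was higher (1.16 ± 0.36). All 5 lost their call when 1 library or another was left out.

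Summed promoter levels of choroid plexus and hem, mesenchyme, intermediate progenitor and radial glia genes overlapped between the series. Those of glial, caudal brain and GABAergic genes were lower in both second-series libraries than in either first-series library. Their median log2 differences were -0.60, -0.46 and -0.39, beside -0.25 over all genes. The sum of upper-layer genes was lower in the same way, with 210 and 256 CPM against 153 and 200 CPM. Of all 20063 promoter regions tested, 6063 were lower in the second series without overlap. The 11 tested choroid plexus and hem genes summed to 67.1 and 86.2 CPM in the first series and 64.4 and 71.9 CPM in the second. The 11 mesenchyme genes summed to 76.3 and 101 CPM against 72.7 and 76.7 CPM, and the 8 glial genes to 38.5 and 52.0 CPM against 34.2 and 30.4 CPM. The 15 caudal brain genes summed to 127 and 171 CPM against 105 and 120 CPM. The 18 GABAergic genes summed to 184 and 227 CPM against 169 and 182 CPM. The 12 intermediate progenitor genes had 250 and 323 CPM against 209 and 271 CPM, and the 19 radial glia genes 282 and 323 CPM against 264 and 321 CPM. No tested promoter of the choroid plexus, mesenchyme, glia, caudal brain or GABAergic lists was at 0 in any neuron library. Few regions of any kind were at 0, with 61, 431, 251 and 793 of 204249 in N1 to N4. Tested regions had also passed a filter on the counts of these libraries, so this sets the lists apart from no others. An accessible promoter does not show that its gene is expressed, and the part of other cell types in the results was not tested.

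Some of the strongest differences lay side by side. In windows of 1 Mb with at least 10 tested regions, the median log2 difference was 0.04 over 2590 windows, from -0.44 at the 5th to 0.49 at the 95th percentile. Of these windows, 13 had a median below -1 and 7 above 1. The 12 windows at the low end held 213 of the lower calls (2.80%) and 13.1% of the 1271 that were at least 4-fold lower. The 12 at the high end held 234 of the higher calls (2.50%) and 11.3% of the 1085 that were at least 4-fold higher. The low and high windows hold 384 and 587 of the 188428 regions tested. They were ranked by the same differences, so a raised share of calls in them follows from the choice.

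The highest median was at the end of chromosome 3. In chr3:1-1000000, which holds CHL1, 62 of 80 tested regions were higher and none lower, with a median of 2.65. The summed level of these regions was 46.05 and 46.8 CPM in N1 and N2, and 255 and 356 CPM in N3 and N4. In chr3:1000001-2000000, which holds CNTN6, 12 of 28 were higher (median 1.53, 17.5 and 19.7 CPM against 61.9 and 56.2 CPM). In both windows each second-series library was several times above each first-series one. CNTN4 lies in chr3:2000001-3000000, where 15 of 52 were higher (median 1.03). Taking the first 3 Mb together, a stretch chosen after its values were seen, 89 of 160 regions were higher and none lower. From 3 to 6 Mb, 7 of 193 were higher and 7 lower, with a median of 0.20. The distal regions of smallest p among those higher were ranked with 1 region per listed gene. The first 5 were at PEG3 and, in the first 3 Mb, at CHL1-AS1, CHL1-AS2, AC066595.1 and RPS8P6. RPS8P6 had 0.164 and 0 CPM against 4.54 and 5.45 CPM.

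**Figure D2:**
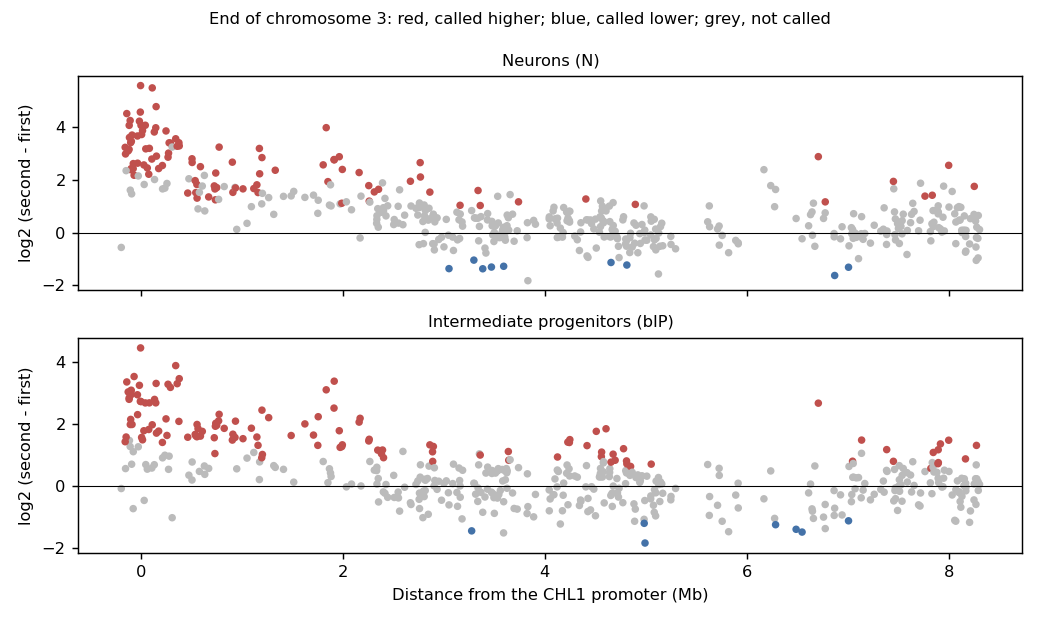
Log2 difference (second over first series) of each tested region against its distance in Mb from the CHL1 promoter, for neurons (top) and intermediate progenitors (bottom); red points were called higher, blue lower, grey not called. In the first 3 Mb of the chromosome 89 of 160 regions were higher in neurons and 88 in progenitors, and none was lower in either.

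The lowest median was in chr12:123000001-124000000, a stretch in which no protein-coding gene had a tested promoter. There 19 of 22 regions were lower, with a median of -4.40 and summed levels of 38.7 and 38.7 CPM in the first series and 2.22 and 1.65 CPM in the second. In chr2B:12000001-13000000, which holds GYPC, a glycophorin of the red cell membrane, 10 of 14 were lower (median -2.92, 59.1 and 57.6 CPM against 13.2 and 15.3 CPM). In chr1:1000001-2000000, which holds the adherens junction gene AJAP1, 40 of 56 were lower (median -2.81, 200 and 239 CPM against 62.5 and 64.3 CPM). No library of one series reached the other in any of these windows.

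The window around TCERG1L, chr10:126000001-127000000, had 61 of 80 regions lower (median -2.05), from 343 and 386 CPM to 88.4 and 118 CPM. A distal region there, 134213 bp from TCERG1L, had 15.5 and 17.2 CPM against 0.671 and 0.799 CPM (-4.46 ± 0.45). A nearby region listed at AC016816.1, chr10:125921066-125922022, had 5.99 and 4.404 CPM in the first series and a single count in each second-series library, too few for a fold. Elsewhere on chromosome 10, chr10:104000001-105000000 had 16 of 34 regions higher (median 1.51, 22.7 and 21.6 CPM against 67.7 and 90.1 CPM). The window chr19:46000001-47000000, around PEG3 and a cluster of zinc finger genes, had 39 of 71 regions higher and none lower (median 1.27). Its summed level overlapped between the series, at 509 and 650 CPM against 648 and 911 CPM.

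**Figure D3:**
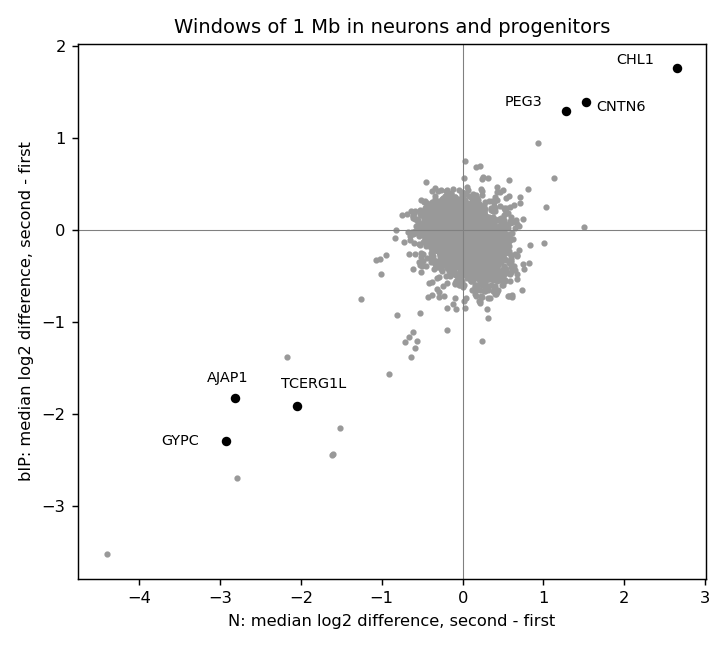
Median log2 difference (second over first series) of 1 Mb windows in neurons (horizontal) and in intermediate progenitors (vertical), 1 point a window, with windows named by a gene in them in black. The windows of CHL1, CNTN6 and PEG3 lie at the upper right, at 2.65, 1.53 and 1.27 in neurons, and those of GYPC, AJAP1 and TCERG1L at the lower left.

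Distal regions near genes of neuronal subtypes were counted next. This count by list was added after the data were seen. Of 179 distal regions whose closest gene was on the deep-layer list, 21 were higher (11.7%) and 2 lower (1.12%), beside 5.34% and 4.16% of all distal regions, and their median was 0.49 beside 0.06. Of 86 near upper-layer genes, 1 was higher and 10 were lower (11.6%), with a median of -0.13. Both counts rest on few libraries: without N2 there were 1 higher deep-layer and 1 lower upper-layer region, and without N1 7 and 1. The deep-layer median stayed above 0, at 0.28 to 0.68, and the upper-layer one below, at -0.30 to -0.06, when each library was left out.

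FEZF2 had the most: 10 of its 38 distal regions were higher and none lower, 25406 to 181814 bp from the gene. The summed level of the 38 was 204 and 170 CPM in the first series and 253 and 356 CPM in the second, and 29 regions were higher in both second-series libraries than in either first-series one, which held for 26.0% of all distal regions. A region 145359 bp away (chr3:62395488-62396365) had 0.821 and 0.299 CPM against 2.63 and 2.35 CPM (2.03 ± 0.48). ZFPM2, a zinc finger cofactor of GATA factors, had 3 of 16 higher, and one at 172564 bp had 2.09 and 0.522 CPM against 5.83 and 6.44 CPM (2.11 ± 0.37). SOX5, a factor of subplate and deep-layer neurons, had 3 of 39 higher, and one at 27207 bp had 4.06 and 2.16 CPM against 8.98 and 10.2 CPM (1.59 ± 0.37). FEZF2 gave 10 of the 21 higher regions of the list, and 7 of its 12 genes had a higher region. BCL11B had none of 6 higher and 1 lower (median -0.11), and FOXP2 had 1 of 15 higher and 1 lower (0.12). LDB2 had 1 of 27 higher (0.48), and TLE4 (0.34) and TBR1 (0.21) had none of 16 and 2.

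CUX2, a homeobox factor of upper-layer neurons, went the other way from FEZF2. Of its 20 distal regions 7 were lower and none higher, with a median of -1.07, and the summed level fell from 92.9 and 101 CPM to 47.5 and 46.5 CPM without overlap. The region 103611 bp from CUX2 (chr12:107139046-107140113) had 17.2 and 20.5 CPM against 3.82 and 6.39 CPM (-1.88 ± 0.38, adjusted p 8.66e-05, edgeR). CUX1 had 2 of 10 lower. None of the 3 distal regions of RORB passed, and CUX2 gave 7 of the 10 lower regions of the list.

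Regions near receptors and guidance genes were more often higher than lower. Near glutamate and GABA receptor genes, 29 of 271 distal regions were higher (10.7%) and 2 lower. GABRB1, a GABA-A receptor subunit, had 10 of 28 higher, and its region 162272 bp away had 0.739 and 0.672 CPM against 2.89 and 4.75 CPM (2.42 ± 0.42). GRM5, a metabotropic glutamate receptor, had 3 of 12 higher, and the region 3648 bp away had 0.944 and 1.64 CPM against 8.16 and 12.5 CPM (3.05 ± 0.40). In both, the second-series libraries were clearly above the first.

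Near axon guidance genes, 36 of 464 were higher (7.76%) and 12 lower (2.59%). NRP2, a receptor of semaphorins, had 8 of 35 higher. Its region 119626 bp away had 0.944 and 0.896 CPM against 3.87 and 5.69 CPM (2.37 ± 0.39). SLIT2, a repellent of axons, had 5 of 14 higher, with a summed level of 35.6 and 27.5 CPM against 55.6 and 71.3 CPM. SEMA3C, a secreted semaphorin, had 4 of 25 higher, and one at 105049 bp had 3.24 and 2.02 CPM against 8.78 and 13.4 CPM (2.04 ± 0.38). NTNG2, a netrin relative on membranes, had 3 of 26 lower. Without N2, 2 regions near receptor genes and 2 near axon guidance genes were higher, and without N1 11 and 11.

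Near synaptic adhesion genes, 21 of 320 were higher (6.56%) and 4 lower, with 4 of 25 higher at CADM2 and 3 of 14 lower at CNTN2. At CNTN2, a contactin of axons and axon-glia contacts, the region 27626 bp away had 21.8 and 27.5 CPM against 7.90 and 11.5 CPM (-1.34 ± 0.39). Of 141 regions near radial glia genes 8 were higher and 6 lower, and of 65 near intermediate progenitor genes 1 was higher and 6 lower (9.23%). Of 73 near GABAergic genes none was higher and 4 were lower. Near ribosomal protein genes, counted by symbols that also cover retrocopies such as RPL10L, none of 87 was higher and 14 were lower (16.1%), 6 of them at RPL10L.

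**Figure D4:**
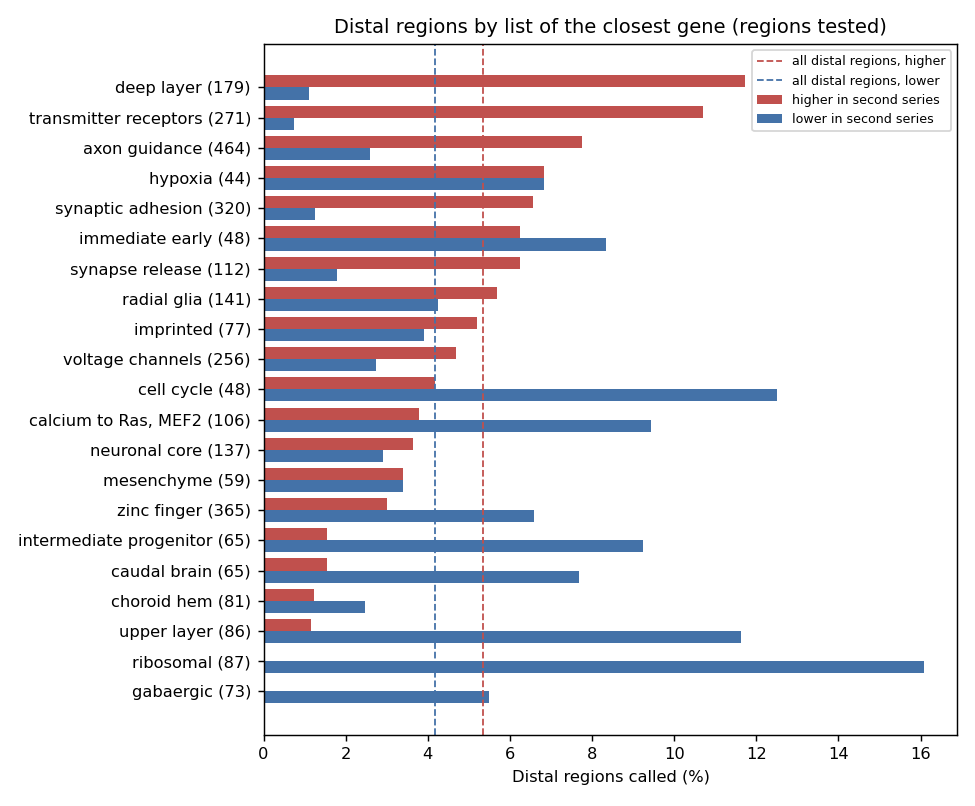
Share of distal regions called higher (red) or lower (blue) in the second series of neuron libraries, by the list of their closest gene, with the number of regions tested in parentheses; dashed lines give the shares of all distal regions, 5.34% and 4.16%. Deep-layer genes (11.7% higher) stand at the top, and upper-layer genes (11.6% lower) near the bottom. Lists with fewer than 40 distal regions are not drawn.

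The direction of the differences moved with distance to the closest gene. The median was -0.24 for promoter regions, -0.04 at 1 to 5 kb, 0.07 at 20 to 50 kb and 0.19 beyond 100 kb. The share of higher regions rose from 2.05% to 6.51% along this order, while the lower share was highest at 1 to 5 kb (4.99%) and 2.99% beyond 100 kb. The share of counts in promoters differed between libraries too, as given above, and its part in this order was not tested. Without N3 the promoter median was -0.10 and the distal one -0.04, so the distal median changed sign.

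**Figure D5:**
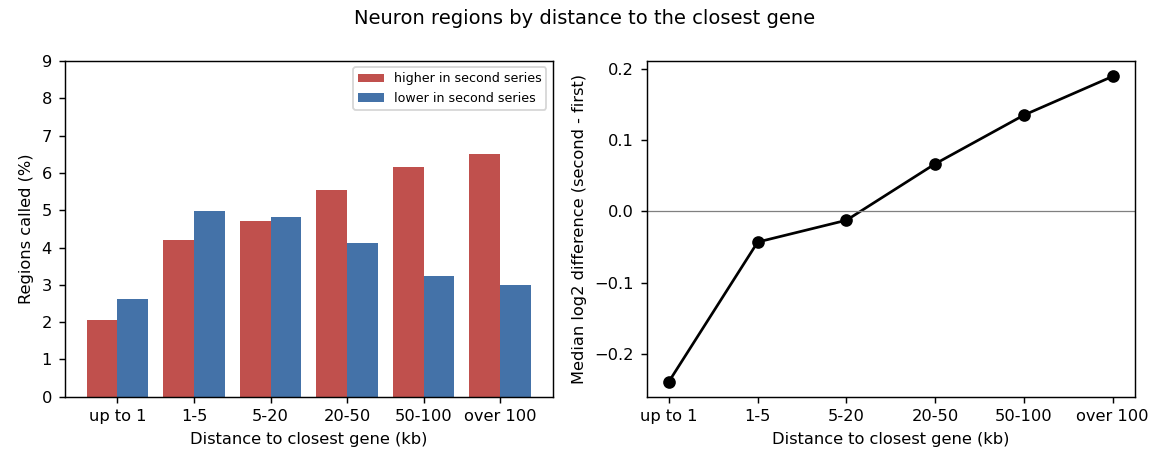
Left, share of neuron regions called higher (red) or lower (blue) in the second series by distance to the closest gene, in kb; right, their median log2 difference. The median goes from -0.24 in promoters to 0.19 beyond 100 kb.

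Chromosomes differed in the same measure. Medians ran from -0.36 on chromosome 19, -0.25 on 22 and -0.24 on 16 to 0.14 on 8, 0.16 on 13 and 0.18 on 4. Over distal regions alone they were -0.34 on chromosome 19 and 0.22 on 4. Chromosome 19 took 3.04% and 3.54% of the counts in N1 and N2, and 2.60% and 2.81% in N3 and N4. Chromosome 4 took 5.35% and 4.91% against 5.77% and 5.48%. On both chromosomes N1 lay closer to N4 than to N2, so libraries of the same series differed as well. In bIP the medians of chromosomes 19 and 4 were 0.15 and -0.14, of the opposite sign.

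Regions were also classed by what happened between progenitor types in the first series. The contrast was between progenitor libraries, though the neuron libraries entered the same fit and its estimate of the spread. Between bIP and aRG, 41.7% of regions were called, 22.4% more and 19.3% less open in bIP. Of 44511 regions tested in neurons and more open in bIP than in aRG, 4269 (9.59%) were lower in second-series neurons and 1591 (3.57%) higher. Of 35925 regions less open in bIP, 523 (1.46%) were lower and 1121 (3.12%) higher. Of the 107992 with no call between bIP and aRG, 2.60% were lower and 6.15% higher. Whichever library was left out, the first class kept a larger lower share than the second. Both shares fell without N1 or N2. Without N3 the gap narrowed, and regions less open in bIP were then more often lower than higher. With all 4 libraries, median log2 differences were -0.15 in regions more open in bIP, 0.07 in those less open and 0.05 in those with no call. Their median levels were 3.70, 1.65 and 2.18 CPM in the same order. The share called lower varied with level. With tested regions split by mean CPM into groups of similar size, it was 0.66%, 3.15%, 7.18%, 6.62% and 2.56% from low to high. The part of level in the gap between classes was not tested.

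Intermediate progenitors, the other cell type with at least 2 libraries in each series, show how far the neuron result is shared. These comparisons use different libraries. In bIP, 26963 of the regions tested in neurons passed (14.3%), 8.92% higher and 5.39% lower. These calls come from the fit of all 14 libraries, in which neurons had 30976 calls of 202713 regions, so they are not comparable in number with the 16951 of the 4-library fit. Of the 9352 higher in neurons, 1687 were higher in bIP (18.04% of the neuron list and 10.0% of the bIP list). Of the 7599 lower in neurons, 1451 were lower in bIP (19.1% and 14.3%). Among protein-coding promoters 9.38% were called in bIP. Of the 67 higher in neurons, 37 were also higher in bIP (55.2%), beside 7.97% of all such promoters. Of the 177 lower, 41 were lower in bIP (23.2%), beside 1.42%.

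PEG3 and the 8 protein-coding promoters of smallest p among those higher in neurons, from CHL1 to GPR25, were all called higher in bIP too. Their log2 differences there were 2.55 to 8.72. Of the 8 lower ones, QPCT, TCERG1L and OTOP1 were also called lower in bIP, while HTR5A, TMC3, RP1L1, IQCF6 and IL25 were not. On the 14-library scale, PEG3 had 0.19 to 0.42 CPM in the 3 first-series bIP libraries and 102 and 115 CPM in the second. CHL1 had 0.26 to 1.11 CPM against 12.8 and 14.1 CPM. QPCT went from 9.91 to 11.8 CPM down to 1.02 and 1.79 CPM. In aRG, with 2 and 1 libraries, PEG3 had 0.28 and 0.31 CPM against 93.2 CPM. The log2 differences of PEG3 and the 8 higher promoters in aRG were 2.33 to 8.30. The window medians in bIP were 1.76 for chr3:1-1000000 and -3.53 for chr12:123000001-124000000.

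The difference between the cell types was tested as an interaction over all 14 libraries. It passed in 16622 of 202713 regions (8.2%), 7952 with a more positive series difference in neurons (3.92%) and 8670 with a more negative one (4.28%). Of the regions tested in neurons alone, 8.67% passed, 4.09% more positive and 4.58% more negative. The count of 16622 depends on single libraries: it was far lower without bIP replicate 5 and far higher without N4. The NRP2 region at 119626 bp was one of the regions that passed, with an interaction of 2.80 ± 0.60 and a bIP difference of -0.38 ± 0.47. The CUX2 region at 103611 bp had an interaction of -1.57 ± 0.33 and a bIP difference of -0.24 ± 0.22. Of the 38 FEZF2 regions, 10 were called higher in bIP, and the one at 145359 bp was not among them (0.03 ± 0.36). Of the 38, 2 had a more positive difference in neurons. Of 35 at NRP2, 8 had a more positive difference in neurons, and of 20 at CUX2, 6 had a more negative one. Several promoters lower in second-series neurons also passed: HTR5A, TMC3, RP1L1, IQCF6 and IL25. TMC3 had 10.9 to 12.3 CPM in first-series bIP and 8.98 and 9.82 CPM in the second. The window chr10:104000001-105000000, higher in neurons, had a bIP median of 0.03, and 8 of its 34 regions had a more positive difference in neurons.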

How the data were processed

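The authors deposited a table of raw counts (reads over each region in each library, per the file headers). The submitters' processing notes name bcl2fastq 2.20.0, MACS2, hg38 and panTro6. Aligner and read counter: not given in the sources used here. Region names give gorGor6 positions. Their starts were taken as counted from 0, because they equal the starts in the deposited peak sets, and are printed counted from 1. The deposited peak sets entered no comparison. Of 218080 regions, 13823 without a gorilla position (all counts 0) and 8 repeats were left out, leaving 204249. A promoter is a region listed within 1000 bp of its closest gene. Of 39300 gene names, 12952 matched a protein-coding gene in the RefSeq table of NHGRI_mGorGor1-v2.1_pri, used for that only. Exons and introns were not used here, and sequence features of promoters were not analysed.

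Counts of the 4 neuron libraries were fitted with edgeR 4.0.16 (R 4.3.3): filterByExpr, TMM, and a quasi-likelihood test with 1 mean per series (2 residual degrees of freedom), adjusted by Benjamini and Hochberg over 188428 regions at 0.05. With 2 libraries against 2 the spread is pooled over regions (dispersion 0.0577). The prior degrees of freedom of this fit were infinite. Its SE and p-values thus use the pooled spread, and not the spread of the region's own libraries. The interaction, the bIP and aRG differences and the progenitor classes came from 1 fit of all 14 libraries with 7 means. CPM use TMM factors of the fit named. A floor of 3 counts lay at 0.123 to 0.224 CPM in the neuron libraries and covers counting error only. Scripts were tested on simulated data.

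Members, lists and tests were chosen with earlier results of these data known. Named were protein-coding promoters that passed without overlap of the libraries (8 of smallest p and 5 of largest difference per direction, the latter at a mean of at least 5 CPM), 5 distal regions per direction, 3 windows per end, list members that passed and 15 markers, of which 1 is not reported here. In each ranking by p or by difference, a gene gave at most 1 region. Distal regions by gene list, the regions picked from them, other windows and the 3 Mb stretch were chosen after the data were seen. Other scalings, filters, DESeq2 1.42.0, a fit of all libraries and leaving out each library were tried. Lists not printed above (pluripotent, unfolded protein, voltage channels, synapse release, calcium to Ras signalling, housekeeping, ribosomal and HOX) had no promoter that passed, of 4, 14, 22, 18, 14, 7, 42 and 16 tested. GRM7 was the only 1 of 23 receptor promoters that passed, PCDHB5 of 6 clustered protocadherins, and none of 31 axon guidance promoters did.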

Additional observations from a re-analysis of the deposited data

Results flagged for a closer look

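The series difference in neurons differed from that in intermediate progenitors, by the interaction test over all 14 libraries, in 16622 regions. Among the regions named, the log2 interaction (neurons minus progenitors) was negative at the promoters of ZNF441 (-1.161), HTR5A (-1.742), TMC3 (-1.952), RP1L1 (-1.862), IQCF6 (-2.454), IL25 (-1.941), ALDH1L1 (-1.342), LMX1B (-1.71) and CA9 (-1.371). ZNF441 was higher in the second series in both cell types, and less so in neurons. The interaction was positive at the LUM promoter (1.557) and at the distal region listed at RPS8P6 (3.574), which rests on 4 and 0 counts in the first-series neuron libraries; its neuron difference was 5.50, and 9.49 without N1. It was negative at the distal regions listed at AC097499.2 (-1.92) and AC016816.1 (-5.685). The last value rests on 1 count in each second-series neuron library. The sizes of the RPS8P6 and AC016816.1 values depend on the prior count of the model. ALDH1L1, LMX1B, CA9 and LUM also lost their neuron call when 1 library was left out.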

How the results depend on the processing

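The 16951 regions became 26257 with loess offsets, 8509 with DESeq2, 6266 with at least 10 CPM in 2 libraries and 30976 in the fit of all 14 libraries. Leaving out 1 library gave 2070 (without N2) to 33912 (without N3). The 935 promoters became 1420 with total counts, 2427 with loess offsets, 526 with DESeq2, 1535 with the 10 CPM filter and 1991 with all libraries, and 139 to 1874 without 1 library. The 16622 interaction regions became 5204 to 39400 without 1 library. The cause was not tested. Where 1 library is left out, the lone library of its series is assumed to vary like the remaining pair. Of the 51 named regions 37 were called, and 25 of these were called in all 4 fits without 1 library. DESeq2 lost 6 of the 37, and none changed direction under any setting tried. No paired analysis was possible because the first and second series share no replicate number (1 and 2 against 3 and 4). The limit of 2-fold on called differences holds for the fit reported: with loess offsets the promoters of STMN2 (0.37), FEZF2 (0.42) and EOMES (0.58) passed as higher, and EOMES (0.42) with the 10 CPM filter.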
